A study of Mus musculus with 18 samples.

Results

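The comparison described here set 3 mice given D-amphetamine against 3 mice given saline, both sampled on day 7 of treatment, and it used 6 of the 18 libraries of the series. All mice were siblings of the inbred strain 129Sv/Jae S4, matched for age and sex and housed in groups. The saline mice received 0.9% saline by intraperitoneal injection. The amphetamine mice received the hemisulfate salt of D-amphetamine dissolved in 0.9% saline, injected into the peritoneum in a volume of 10 ml/kg, with 7 mg/kg given in total per day. The labels give no schedule of the injections within a day and no interval between the last injection and dissection. Polyadenylated RNA was sequenced from striatal tissue that lay dorsal to the anterior commissure, taken from both sides of the brain, so each value is an average over all cell types in that block. The other 4 groups, saline and amphetamine on days 1 and 21 with 3 mice each, served to estimate the spread between animals and to place the day 7 levels. Values are FPKM, fragments per kilobase of transcript scaled to the mapped fragments of the library, for 29942 gene names, and 13975 names with a mean of at least 1 FPKM over the 18 libraries were tested.

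Amphetamine enters dopamine terminals through the dopamine transporter and drives dopamine out into the extracellular space. In the striatum most neurons are inhibitory projection neurons. Those of the direct pathway carry the D1 receptor, which raises cyclic AMP and engages protein kinase A and the ERK kinases, whereas those of the indirect pathway carry the D2 receptor and the adenosine receptor encoded by Adora2a. Kinase signalling reaches the nucleus through phosphorylation of CREB and of partners of the serum response factor, and switches on immediate-early genes, which need no new protein for their transcription. Their products are in part transcription factors, in part proteins that act at synapses, and in part phosphatases and adaptors that shut the ERK pathway off again.

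The sequences upstream of 4 of these genes are shown because such signals act on them: Fos and Btg2 rose on day 7, Npas4 missed the threshold narrowly, and Dusp1, a feedback gene, holds the full palindrome of the CREB element. Each run gives the 250 bases before the transcription start, 5′ to 3′ on the strand of the gene, from RefSeq on build GRCm38.p6. They lie at chr12:85473640-85473889 on the plus strand for Fos, and on the minus strand at chr1:134079156-134079405 for Btg2, chr19:4989972-4990221 for Npas4 and chr17:26508473-26508722 for Dusp1. Capitals mark TGACG, the core of the cyclic AMP response element bound by CREB, on either strand, and the full palindrome TGACGTCA where it is present.
Fos: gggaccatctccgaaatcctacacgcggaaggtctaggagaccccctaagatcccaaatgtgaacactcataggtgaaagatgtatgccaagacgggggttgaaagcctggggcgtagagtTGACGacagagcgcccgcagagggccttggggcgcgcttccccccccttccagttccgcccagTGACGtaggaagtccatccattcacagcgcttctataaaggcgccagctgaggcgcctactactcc
Btg2: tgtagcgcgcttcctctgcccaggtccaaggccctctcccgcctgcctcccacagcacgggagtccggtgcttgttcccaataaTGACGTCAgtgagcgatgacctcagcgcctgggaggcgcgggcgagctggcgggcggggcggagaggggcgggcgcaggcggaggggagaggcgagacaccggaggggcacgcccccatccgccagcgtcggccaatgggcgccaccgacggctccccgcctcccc
Npas4: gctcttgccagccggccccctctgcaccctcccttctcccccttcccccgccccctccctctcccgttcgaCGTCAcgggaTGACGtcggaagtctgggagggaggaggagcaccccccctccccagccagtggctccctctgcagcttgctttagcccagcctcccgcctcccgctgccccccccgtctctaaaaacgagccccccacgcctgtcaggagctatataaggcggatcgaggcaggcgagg
Dusp1: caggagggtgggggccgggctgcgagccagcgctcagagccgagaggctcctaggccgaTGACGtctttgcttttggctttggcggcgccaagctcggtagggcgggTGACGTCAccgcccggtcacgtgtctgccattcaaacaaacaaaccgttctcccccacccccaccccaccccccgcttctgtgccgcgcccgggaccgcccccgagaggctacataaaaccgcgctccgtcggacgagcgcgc

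TGACG stood 129 to 125 and 66 to 62 bases before the start of Fos, and a TATAAA box 33 to 28 bases before it. The palindrome TGACGTCA, which contains TGACG on both strands, lay 166 to 159 bases before the start of Btg2 and 143 to 136 bases before that of Dusp1. Npas4 had TGACG 179 to 175 and 169 to 165 bases before its start. Of the 54 genes in the lists of immediate-early transcription factors and immediate-early effectors, tested or not, 39 had 1 window or more. TGACG on either strand was present in at least 1 window of 26 of these 39 genes (66.7%), against 31.3% of the 8750 tested genes with a window. Counted per window, it was present in 17.8% of all 32851 windows of that length. A gene with several windows has more places for a match, so shares of genes and of windows cannot be compared. TGACGTCA was present in 6 of 39 genes (15.4%), against 3.2% of tested genes, and in 1.5% of single windows. The AP-1 site TGANTCA was present in 2 of 39 (5.1%), against 5.0% of tested genes, and the CArG box of the serum response factor in 2 of 39, against 1.4% of tested genes. The letters TATAAA, searched on both strands like the others, occurred in 7 of 39 (17.9%) and in 7.6% of tested genes. These matches describe the sequence and are not measured binding.

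The relative depth of each library was its most common FPKM ratio to amphetamine replicate 1 of day 7, over genes found in 2 to 6 libraries. In such genes the value of 1 fragment should differ between libraries by the same factor. The step between low FPKM values was taken as the value of 1 fragment. With the lengths of 167 genes that have a single annotated transcript, it gave an estimate of the absolute depth. The 6 day 7 libraries held an estimated 10190000 to 14700000 fragments (quartiles over those genes for the deepest library, 13540000 and 15850000). Where a step stands for more than 1 fragment, these estimates and the fragment numbers below are too low. Where it stands for part of a fragment, they are too high. Relative to that library the saline libraries ran from 0.808 to 1 (mean 0.894) and the amphetamine libraries from 0.693 to 0.944 (mean 0.822). With relative depth as a covariate the same 3 genes passed the threshold. Saline replicate 3 carried 1 short transcript, DQ567485, at 104588 FPKM, which was listed at 0 in the other 17 libraries. Correlations of log2(FPKM + 1) ran from 0.92 to 0.934 both within and between the day 7 groups. All 15 markers of striatal projection neurons were present, with sums of 4870 to 5210 FPKM in saline mice and 4430 to 5200 in amphetamine mice, and 12 of the 15 were lower (median −0.080, and −0.026 without amphetamine replicate 2).

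On day 7, 3 of the 13975 genes (0.0215%) passed an adjusted p of 0.05 in limma, a linear model with moderated variances, and all 3 were higher with amphetamine. Unadjusted p values under 0.05 were found for 687 genes (4.92%), of which 395 had higher levels (2.83%) and 292 lower levels (2.09%). The median log2 difference over all genes was 0.004. The 3 amphetamine values lay above all 3 saline values in 761 genes (5.45%) and below them in 679 (4.86%), together 10.3% of the genes. With 3 mice against 3, an exact permutation test of a single gene cannot give a two-sided p below 0.1, so the calls rest on the spread shared across genes and groups.

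Fos encodes the transcription factor subunit that pairs with Jun proteins to form AP-1. Its FPKM was 2.75, 3.69 and 3.86 in saline replicates 1, 2 and 3 and 17.1, 23.1 and 20.6 in the amphetamine replicates. The groups were far apart, with the lowest amphetamine value above 4 times the highest saline value. The means were 3.43 ± 0.597 (SD, n = 3) and 20.3 ± 3.03 (SD, n = 3), a 5.9-fold difference in FPKM, and the log2 difference was 2.26 ± 0.28 (SE; limma adjusted p = 0.014). At the estimated depth this corresponds to about 85 to 100 fragments per saline library and 438 to 603 per amphetamine library, counted on its longest transcript of 2108 bases.

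Btg2 encodes an antiproliferative protein that recruits the machinery for removal of poly(A) tails. Saline values were 2.23, 1.56 and 2.03 FPKM and amphetamine values 5.79, 9.78 and 8.15 FPKM. Every amphetamine mouse lay above every saline mouse, with amphetamine replicate 1 the lowest of its group. The log2 difference was 1.58 ± 0.21 (SE; limma adjusted p = 0.014). The third gene, AK006051, is a transcript named after a cDNA clone, with 4.72, 3.43 and 4.36 FPKM in saline mice and 9.93, 13.6 and 12.7 in amphetamine mice. Its groups were separated as well, again with amphetamine replicate 1 the lowest of its group, and its log2 difference was 1.34 ± 0.20 (SE; limma adjusted p = 0.0349). The number of genes past the threshold was 2 (Btg2 and Fos) without amphetamine replicate 1 and 0 without any other of the 6 libraries (limma, with 512 to 858 genes at an unadjusted p under 0.05), and 9 genes passed when the day 7 libraries were fitted alone, 1 of them (Fos) among the 3.

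**Figure D1:**
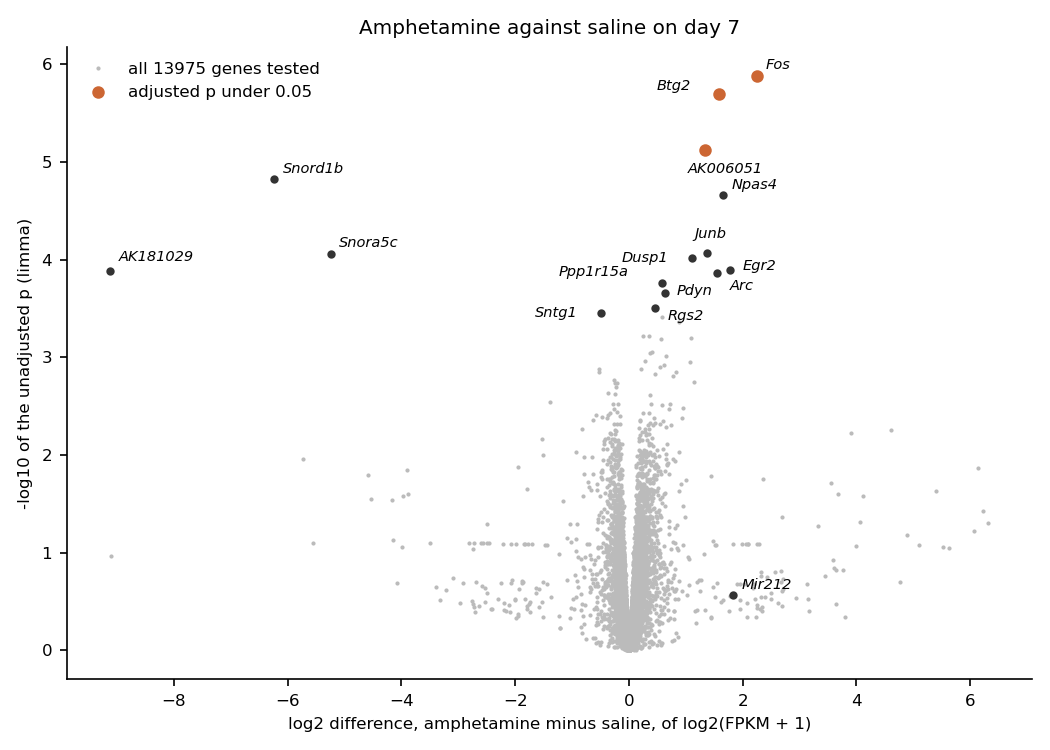
Each point is 1 of 13975 genes, with its log2 difference between amphetamine and saline on day 7 on the x axis (log2(FPKM + 1)) and −log10 of the unadjusted limma p on the y axis. The 3 genes with an adjusted p under 0.05 are the orange points on the right, and the labelled dark points are other genes described in the text, none of them past the threshold.

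Immediate-early transcription factors are the genes with which a neuron answers a stimulus first. Of 25 tested members 20 were higher and 5 lower with amphetamine, and 1 (Fos) rose over all genes tested. Without overlap between the groups 12 lay higher and 1 lower. Over all 13975 genes 51.3% were higher with amphetamine. Without overlap 5.45% of all genes lay higher and 4.86% lower, the shares to set beside each list below. The median log2 difference was 0.331 (0.728 for members with a mean of at least 5 FPKM), against 0.004 for all genes, and it was 0.359 on day 1 and 0.217 on day 21. The summed level of the list was 379 to 456 FPKM in the saline mice and 658 to 673 FPKM in the amphetamine mice.

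Npas4 encodes a neuron-specific factor that is induced by calcium influx. It stood at 3.27, 2.83 and 3.64 FPKM in saline mice and at 12.2, 13.1 and 11.8 FPKM in amphetamine mice. Both groups were tight and far apart, and it missed the threshold at 1.66 ± 0.27 (SE) on the log2 scale (limma adjusted p = 0.0615). It passed under 4 of 18 alternative settings, with adjusted p values from 0.00998 to 0.682. Junb, an AP-1 partner of Fos, had 32.3, 32.3 and 35.0 FPKM in saline mice and 76.3, 96.5 and 91.6 in amphetamine mice. All amphetamine values were more than 2 times the saline values, with a difference of 1.38 ± 0.25 on the log2 scale (SE; limma adjusted p = 0.168). Egr2, a zinc finger factor, had 2.47, 4.08 and 2.29 FPKM in saline mice and 11.3, 14.2 and 11.7 in amphetamine mice. Its saline replicate 2 was the highest of that group and still lay below every amphetamine value (log2 difference 1.79 ± 0.34 SE, limma adjusted p = 0.174).

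Egr1, Nr4a1, Fosb and Egr4 also kept their groups apart without passing the threshold. Egr1, the most abundant member, had 84.1, 103.5 and 84.1 FPKM in saline mice and 149.7, 156.3 and 160.5 in amphetamine mice. Nr4a1, an orphan nuclear receptor, had 22.2, 32.3 and 26.6 FPKM in saline mice and 64.7, 51.6 and 57.0 in amphetamine mice. Fosb, whose truncated product accumulates with repeated drug exposure, had 4.34, 5.96 and 3.88 FPKM in saline mice and 9.86, 9.11 and 9.28 in amphetamine mice, the table holding 1 value for all its isoforms. Their log2 differences were 0.78 for Egr1, 1.08 for Nr4a1 and 0.88 for Fosb. Egr4, named here after its values were seen, stood at 18.9, 30.4 and 28.6 FPKM in saline mice and 58.6, 60.0 and 55.0 in amphetamine mice. Egr3, the second most abundant member, overlapped between groups, with a log2 difference of 0.20. The list was uneven on day 7, with Fos, Egr2 and Npas4 at log2 differences above 1.6 and Egr3 at 0.20.

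**Figure D2:**
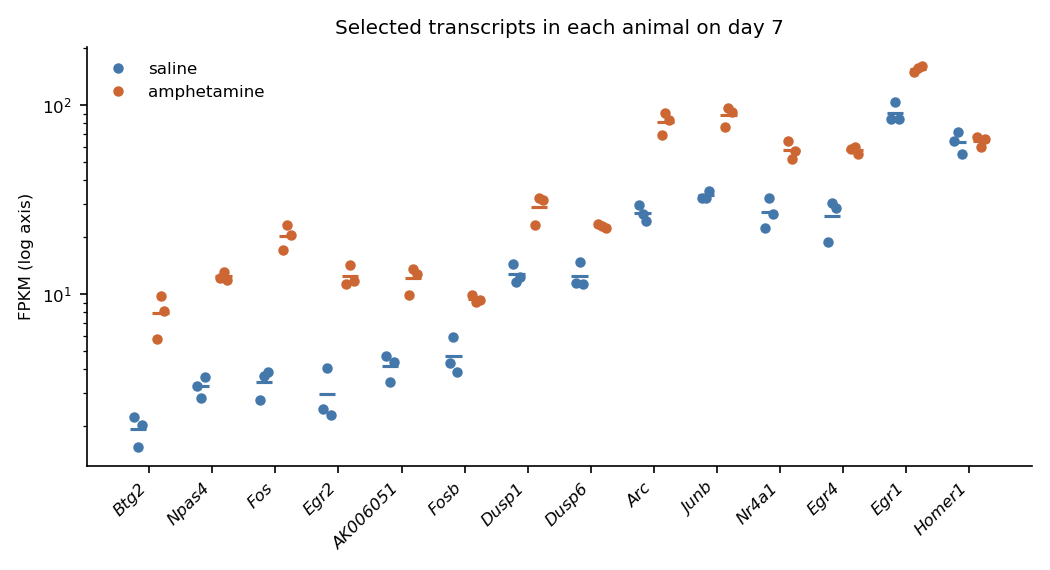
FPKM on a log axis of 14 transcripts in each of the 6 day 7 mice, with saline in blue and amphetamine in orange, points for animals and short lines for group means of 3. In 13 of the 14 the 2 groups do not overlap, and in Homer1 they do.

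Immediate-early effectors, whose products act outside the nucleus or on RNA and protein, were higher in 21 of 22 tested members. Of these 1 (Btg2) rose over all genes tested, and 15 lay higher without overlap, against 5.45% of all genes. None lay lower without overlap, and the median log2 difference was 0.245. Their summed level was 394 to 424 FPKM with saline and 525 to 542 with amphetamine. Arc, which encodes a capsid-like protein that moves AMPA receptors out of synapses, had 29.5, 26.6 and 24.4 FPKM in saline mice and 69.5, 90.8 and 82.8 in amphetamine mice. Its lowest amphetamine value was more than 2 times its highest saline value, with a difference of 1.56 ± 0.30 on the log2 scale (SE; limma adjusted p = 0.174). Ppp1r15a, a phosphatase subunit that reverses the stress brake on translation, had 4.34, 4.38 and 5.50 FPKM in saline mice and 6.90, 7.94 and 8.01 in amphetamine mice (limma adjusted p = 0.2). Rgs2, which shortens signalling through Gq proteins, had 43.1, 46.3 and 42.8 FPKM in saline mice and 65.1, 57.3 and 60.4 in amphetamine mice (limma adjusted p = 0.31). Plk2, a kinase of dendritic spines and the most abundant member, had 106.1, 100.5 and 89.3 FPKM in saline mice and 113.8, 107.2 and 122.9 in amphetamine mice. Homer1, which encodes postsynaptic scaffolds and, as a short isoform, an immediate-early product, stood at 64.7, 71.5 and 54.9 FPKM in saline mice and 67.7, 60.0 and 65.8 in amphetamine mice. Its groups overlapped fully, with a log2 difference of 0.025. As for Fosb, 1 value stands for all isoforms, so a change in the short isoform of Homer1 alone cannot be read from it.

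Feedback genes of ERK signalling were higher in 13 of 13 tested members, 7 of them without overlap (5.45% over all genes). The median log2 difference was 0.305, and no member passed the threshold. Errfi1, named after its values were seen, lay higher without overlap. It counts here, among the immediate-early effectors and among the glucocorticoid-responsive genes below. Dusp1, a nuclear phosphatase of MAP kinases, had 14.3, 11.6 and 12.3 FPKM in saline mice and 23.3, 32.1 and 31.3 in amphetamine mice. The groups were separated, with a difference of 1.11 ± 0.21 on the log2 scale (SE; limma adjusted p = 0.168). Dusp6, the cytoplasmic phosphatase of ERK, had 11.5, 14.7 and 11.2 FPKM in saline mice and 23.4, 23.0 and 22.2 in amphetamine mice (log2 difference 0.83, limma adjusted p = 0.619). Spred2 and Spry1, adaptors that restrain Ras and Raf, differed less. Spred2 had 17.4, 17.9 and 17.1 FPKM in saline mice and 20.2, 19.8 and 20.8 in amphetamine mice. Spry1 had 2.44, 2.12 and 2.41 FPKM in saline mice and 3.46, 3.15 and 2.83 in amphetamine mice. Both kept their groups apart, with log2 differences of 0.20 and 0.32. Without saline replicate 1 the median of the list was 0.201.

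Late-response genes, which follow the immediate-early factors by hours, were higher in 10 of 14 tested members, with a median log2 difference of 0.237. Without overlap 6 lay higher and 2 lower, against 5.45% and 4.86% of all genes. Gpr3, a receptor that raises cyclic AMP without a ligand, had 2.62, 3.49 and 2.83 FPKM in saline mice and 5.28, 6.17 and 4.85 in amphetamine mice. Pdyn encodes prodynorphin, the source of opioid peptides with which direct-pathway neurons act on kappa receptors of dopamine terminals. It stood at 32.1, 47.8 and 45.9 FPKM in saline mice and at 62.7, 70.8 and 59.8 FPKM in amphetamine mice. All amphetamine values lay above all saline values, and saline replicate 1 was the lowest of the 6 (log2 difference 0.63 ± 0.13 SE, limma adjusted p = 0.237). The 2 members that lay lower without overlap were Acvr1c, an activin receptor, and Rgs4, a brake on Gi and Gq signalling. Acvr1c had 24.0, 21.9 and 19.4 FPKM in saline mice and 16.8, 14.4 and 19.1 in amphetamine mice. Rgs4 had 344.6, 295.5 and 257.4 FPKM in saline mice and 235.1, 221.2 and 255.1 in amphetamine mice. The margin between the groups was narrow in both, with log2 differences of −0.36 and −0.33 (limma adjusted p = 0.822 and 0.832).

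Of 11 tested neuropeptide genes 10 were higher with amphetamine, 4 without overlap (Pdyn, Sst, Cartpt and Npy), against 5.45% of all genes. None passed the threshold, and the median log2 difference was 0.29. Sst, the somatostatin gene of one interneuron class, had 200.8, 174.3 and 211.6 FPKM in saline mice and 245.1, 223.0 and 248.4 in amphetamine mice. Npy, neuropeptide Y of the same interneurons, had 50.3, 41.9 and 52.2 FPKM in saline mice and 52.9, 55.7 and 56.8 in amphetamine mice. Cartpt, the precursor of the CART peptides, was scarce, at 0.882, 1.39 and 1.61 FPKM in saline mice and 3.25, 4.40 and 1.77 in amphetamine mice. Sst differed by 0.29 on the log2 scale, Npy by 0.20 and Cartpt by 0.81. The interneuron markers, a list that includes Sst and Npy, summed to 294 to 352 FPKM in saline mice and 373 to 386 in amphetamine mice, without overlap. Sst and Npy made up most of each sum, so it is not separate from their values. Of 12 tested interneuron markers 9 were higher (median 0.092), 2 of them (Sst and Npy) without overlap, and the part of the interneurons in these differences was not tested. The abundant precursors of the projection neurons overlapped between the groups. Penk, the enkephalin precursor of indirect-pathway neurons, had 1221, 1367 and 1181 FPKM in saline mice and 1415, 1162 and 1311 in amphetamine mice. Tac1, from which direct-pathway neurons make substance P, had 243.0, 211.7 and 200.2 FPKM in saline mice and 260.6, 204.0 and 254.6 in amphetamine mice. Without saline replicate 3, 7 neuropeptide genes lay higher without overlap, as did 15.6% of all genes, since fewer libraries separate more easily by construction.

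Genes of dopamine signalling were lower in 14 of 16 tested members and higher in 2, where 51.3% of all genes were higher. Of the lower members 2 were without overlap, against 4.86% of all genes, and no member passed the threshold. The median log2 difference was −0.055. In tissue of mixed cells, fewer cells of a type and less RNA per cell cannot be told apart. Drd1a, the D1 receptor gene, had 124.6, 119.3 and 109.1 FPKM in saline mice and 101.9, 95.9 and 111.1 in amphetamine mice. The highest amphetamine value lay above the lowest saline value, and the log2 difference was −0.19 ± 0.06 (SE; limma adjusted p = 0.822). Adora2a, the adenosine receptor gene of the indirect pathway, had 189.0, 186.8 and 191.2 FPKM in saline mice and 169.3, 142.7 and 165.4 in amphetamine mice. Its groups were separated, with amphetamine replicate 2 the lowest, and the log2 difference was −0.25 (limma adjusted p = 0.964). Drd2, the D2 receptor gene, had 149.8, 154.6 and 135.7 FPKM in saline mice and 139.2, 116.9 and 143.8 in amphetamine mice. Its groups overlapped, and amphetamine replicate 2 was the lowest of the 6 libraries in Drd1a, Adora2a and Drd2. Th, tyrosine hydroxylase, was one of the 2 members with a higher mean, at 3.50, 2.63 and 4.79 FPKM in saline mice and 3.59, 5.64 and 6.02 in amphetamine mice. Ppp1r1b, the DARPP-32 gene and the most abundant member, differed by −0.02 on the log2 scale, by 0.08 after quantile normalization and by 0.06 without amphetamine replicate 2.

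Markers of the indirect pathway were lower in 7 of 10 members (median −0.109), 2 without overlap (4.86% over all genes). These were Adora2a and Sp9, a zinc finger factor of indirect-pathway neurons, with 15.3, 17.5 and 17.4 FPKM in saline mice and 14.4, 13.4 and 15.2 in amphetamine mice. Direct-pathway markers were lower in 5 of 9 members and higher in 4, near the share over all genes (51.3% higher). Their median of −0.029 turned to 0.064 for members with a mean of at least 5 FPKM. Within that list Pdyn lay higher without overlap and Eya1, a transcriptional coactivator, lower, at 4.05, 4.84 and 3.38 FPKM in saline mice and 2.96, 3.27 and 2.59 in amphetamine mice. Markers of the matrix, the larger compartment of the striatum, were lower in 7 of 9 members (median −0.087, and −0.019 without saline replicate 3). Those of the striosomes, the patches embedded in it, were higher in 8 of 12 (median 0.041). Higher without overlap were 3 of these, Oprm1, Pdyn and Nr4a1, against 5.45% of all genes. Pdyn and Nr4a1 are counted in lists above as well. Without amphetamine replicate 2 the striosome count was 5, where the share over all genes was 9.24%. Khdrbs3, an RNA-binding protein gene, lay lower without overlap. Necab1, a calcium-binding protein gene of the matrix, had 37.0, 39.3 and 28.7 FPKM in saline mice and 27.7, 25.1 and 31.4 in amphetamine mice. Cnr1, the CB1 cannabinoid receptor gene, had 127.9, 116.4 and 96.8 FPKM in saline mice and 99.9, 77.7 and 97.5 in amphetamine mice. The groups overlapped in both. Rasgrp2, a Rap exchange factor of the matrix, had 298.4, 261.3 and 263.3 FPKM in saline mice and 247.8, 233.0 and 245.6 in amphetamine mice, without overlap. Rasgrp1, its Ras-activating relative in striosomes, had 159.6, 152.6 and 140.0 FPKM in saline mice and 135.7, 121.2 and 153.0 in amphetamine mice, with overlap. None of these genes passed the threshold.

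**Figure D3:**
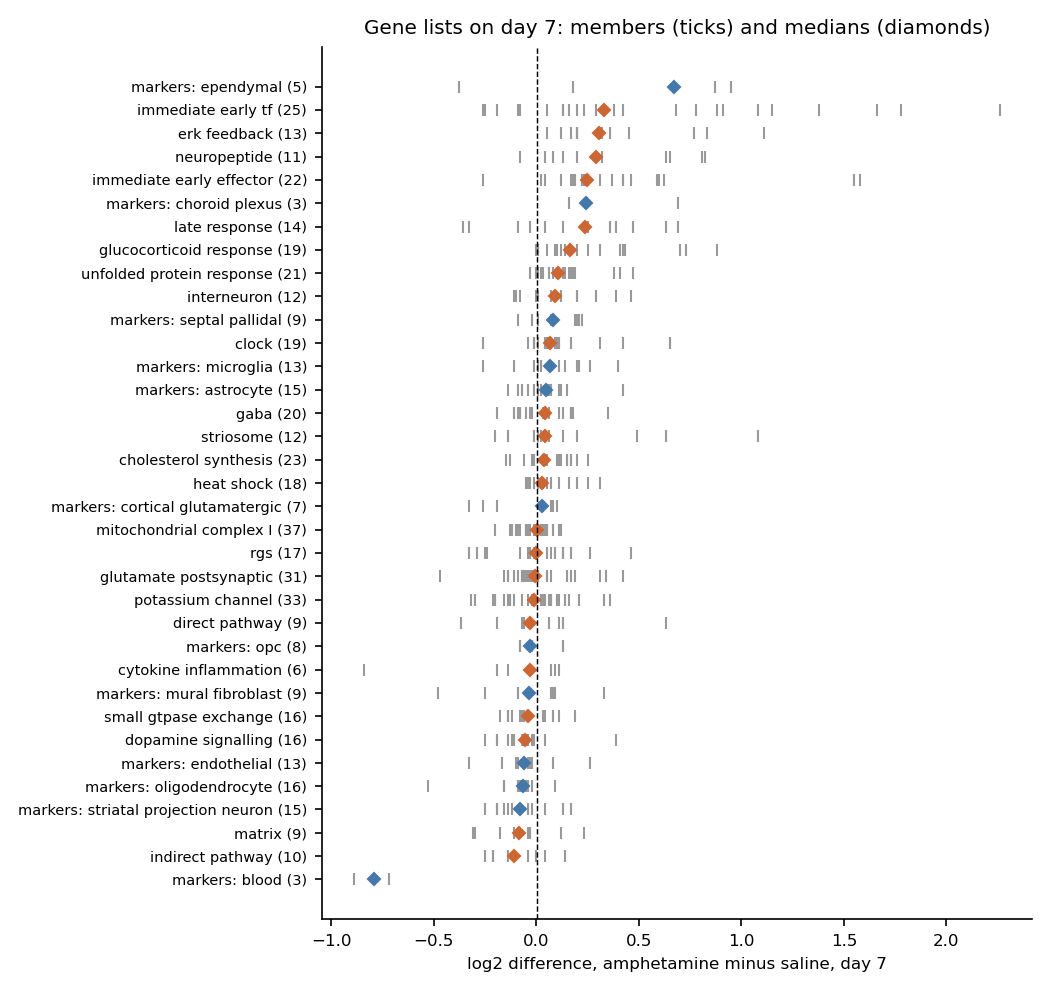
Log2 differences on day 7 for the tested members of each gene list (grey ticks) with the list median (orange diamonds for gene lists, blue for cell type markers), and the number of tested members in brackets. The dashed line is the median of all genes at 0.004, and the lists of immediate-early, ERK feedback and neuropeptide genes lie to its right with medians of 0.245 to 0.331.

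Glucocorticoid-responsive genes were higher in 18 of 19 tested members, 7 of them without overlap (5.45% over all genes). Without saline replicate 2 that number was 11, where the share over all genes was 9.69%. The median log2 difference was 0.166, and none passed the threshold. Xdh, xanthine dehydrogenase, had 1.69, 2.13 and 1.75 FPKM in saline mice and 3.62, 4.01 and 3.57 in amphetamine mice. Plin4, a lipid droplet coat protein, had 0.507, 0.782 and 0.637 FPKM in saline mice and 1.97, 3.11 and 1.25 in amphetamine mice. Both separated the groups, with log2 differences of 0.73 and 0.88. Clock genes were higher in 14 of 19 members, 5 without overlap (3 after median-of-ratios scaling), against 5.45% of all genes, with a median of 0.068. The period genes encode repressors within the circadian loop. Per2 had 9.12, 11.03 and 8.82 FPKM in saline mice and 16.31, 15.99 and 14.69 in amphetamine mice (log2 difference 0.65, limma adjusted p = 0.567). Per1, which belongs to both lists and to the immediate-early factors, had 19.2, 24.7 and 22.2 FPKM in saline mice and 32.9, 27.8 and 28.8 in amphetamine mice. Gm129, another repressor of the loop, had 12.1, 10.6 and 9.45 FPKM in saline mice and 16.5, 17.8 and 17.7 in amphetamine mice. All 3 kept their groups apart, while Clock and Arntl, the activators of the loop, picked after their values were seen, differed by −0.04 and 0.04.

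Genes of the unfolded protein response were higher in 19 of 21 tested members, with a median log2 difference of 0.106. Of these 4 were without overlap (5.45% over all genes). That count was 10 without saline replicate 2, 10 without amphetamine replicate 3 and 7 without saline replicate 3, where 9.69%, 11.2% and 15.6% of all genes lay higher without overlap. Xbp1, the factor spliced by the endoplasmic reticulum stress sensor, had 85.5, 90.9 and 91.7 FPKM in saline mice and 103.8, 116.4 and 132.3 in amphetamine mice. Genes of GABA transmission were higher in 11 of 20 tested members, near the 51.3% of all genes, with a median of 0.043. Without overlap 3 lay higher and 2 lower, against 5.45% and 4.86% of all genes. Gabrb1, a receptor subunit, had 7.87, 7.60 and 7.46 FPKM in saline mice and 9.68, 9.57 and 10.8 in amphetamine mice. Of 33 potassium channel genes 18 were lower and 15 higher, near the share over all genes, with a median of −0.011. Without overlap 5 lay lower and 1 higher, against 4.86% and 5.45% of all genes. Kcns2, a silent subunit of Kv2 channels, had 18.5, 16.7 and 17.3 FPKM in saline mice and 12.7, 13.1 and 16.7 in amphetamine mice, and Kcnip2, a partner of Kv4 channels, had 178.6, 173.0 and 165.6 in saline mice and 153.0, 136.8 and 161.3 in amphetamine mice. Subunits of mitochondrial complex I served as a contrast, with 19 of 37 higher, none without overlap and a median of 0.005. No gene of these lists passed the threshold.

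The summed levels of oligodendrocyte, cortical, choroid plexus, ependymal and blood markers overlapped between the groups. Oligodendrocyte markers summed to 1380 to 2180 FPKM with saline and 1330 to 2330 with amphetamine, with 15 of 16 members lower by a median of −0.066. Cortical glutamatergic markers summed to 59.0 to 69.9 and 58.8 to 70.8 FPKM, choroid plexus markers to 8.17 to 16.2 and 9.21 to 32.0, and ependymal markers to 8.53 to 11.9 and 8.90 to 24.1. Of the ependymal list 5 of 10 genes were tested and 4 of them were higher (median 0.671, but 0.198 without amphetamine replicate 1 and 1.06 without amphetamine replicate 3), and all 3 tested choroid plexus genes were higher (median 0.24). Blood transcripts summed to 115 to 888 FPKM with saline and 143 to 348 with amphetamine, with 3 of 3 tested members lower (median −0.79). No marker in these 5 lists was at 0 in all 6 libraries. Their part in the differences of other genes was not tested.

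The 12 genes with the smallest p among those lower without overlap did not fall into 1 of the lists, and none of them passed the threshold. AK181029, named after a cDNA clone, was listed at 468.6, 515.1 and 705.1 FPKM in saline mice and at 0 in all 3 amphetamine mice. It was also listed at 0 in saline replicate 1 of day 21, and a value of 0 in such a file can be a failed estimate. Sntg1, a syntrophin of the dystrophin complex in neurons, had 5.71, 5.19 and 5.26 FPKM in saline mice and 3.55, 3.17 and 3.96 in amphetamine mice. Its groups were tight and apart, with a difference of −0.488 ± 0.105 on the log2 scale (SE; limma adjusted p = 0.325). Mgea5, the enzyme that takes O-GlcNAc off proteins, had 78.2, 68.6 and 69.6 FPKM in saline mice and 62.3, 56.9 and 61.3 in amphetamine mice. Camk2n1, an inhibitor of the kinase CaMKII, had 588.5, 590.6 and 528.9 FPKM in saline mice and 478.1, 463.1 and 466.8 in amphetamine mice. Both were abundant and separated by a small relative margin, with log2 differences of −0.26 and −0.28. Rngtt, the enzyme that caps messenger RNA, had 9.71, 9.76 and 9.19 FPKM in saline mice and 7.92, 8.42 and 8.10 in amphetamine mice. The others, AK018450, D130017N08Rik, Fam133b, Rbak, Krt10, Nipsnap1 and mKIAA4221, had log2 differences from −1.38 to −0.22. On the higher side the twelfth gene by p was Pcsk4, a proprotein convertase, at 0.732, 0.807 and 0.967 FPKM in saline mice and 1.78, 1.76 and 1.66 in amphetamine mice.

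Differences of more than 1 on the log2 scale without overlap were found in 21 genes higher and 8 lower. Of these 6 and 4 carried names of short RNAs (small nucleolar RNAs, microRNA hairpins and the like), for which a single fragment is worth many FPKM. The count rests on names alone. It leaves out DQ714635 and AF357374, 2 higher entries of unknown length, picked after their values were seen. The short RNAs are therefore given in steps, the whole number of times that a common step goes into the depth-scaled FPKM (tolerance 0.05). A step may stand for 1 fragment, for more or for part of 1, and can be smaller than the smallest value found. All short RNA genes below were named after their values were seen. Mir212, with a step of 40.0 FPKM, stood at 5, 3 and 2 steps with saline and 8, 12 and 11 steps with amphetamine, or 199.98, 137.52 and 98.94 FPKM against 386.59, 692.43 and 465.9 FPKM. All amphetamine mice lay above all saline mice, but with values of 0 on other days the spread was wide and at 1.83 ± 1.60 (SE) on the log2 scale the gene was far from the threshold (limma adjusted p = 1). Mir132, its neighbour in a cluster of chromosome 11 with 203 bases between the hairpins, was listed at 0, 0 and 0 steps with saline and 2, 0 and 5 steps with amphetamine. Both genes are known targets of CREB. The mature sequences, which were not measured in this polyadenylated RNA, are shown because they share a seed, bases 2 to 8 in capitals.
mmu-miR-212-3p: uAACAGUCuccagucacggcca
mmu-miR-132-3p: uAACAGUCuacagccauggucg

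In the opposite direction, Snord1b, a small nucleolar RNA, was at 2, 2 and 1 steps with saline and listed at 0 in all 3 amphetamine mice, and it missed the threshold (limma adjusted p = 0.0528). On days 1 and 21 Snord1b was listed at 0 with either treatment, except for 1 step in saline replicate 1 of day 1. The saline level of day 7 thus lay above the other saline groups (log2 difference 5.33, limma adjusted p = 0.244), while the amphetamine level did not differ between days. Snora5c was at 2, 4 and 2 steps with saline and listed at 0 with amphetamine (limma adjusted p = 0.168). Snora41 was at 4, 8 and 9 steps with saline and 0, 0 and 2 in amphetamine mice. Mir384 was at 1, 1 and 1 step with saline and listed at 0 with amphetamine. These genes rest on few fragments per library, and no fold is given.

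**Figure D4:**
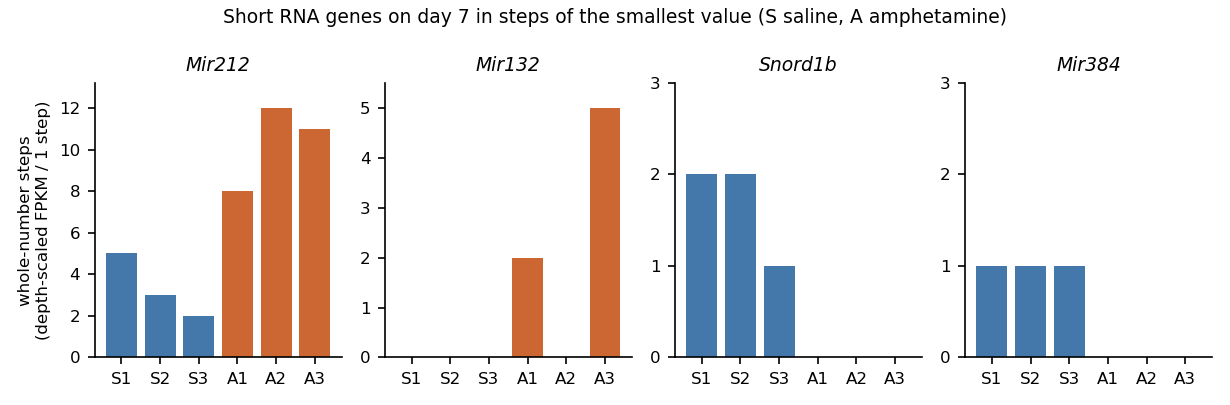
Bars give the number of whole steps (depth-scaled FPKM divided by the value of 1 step) of 4 short RNA genes in the 3 saline (S1 to S3, blue) and 3 amphetamine mice (A1 to A3, orange) of day 7. Mir212 stands at 2 to 5 steps with saline and 8 to 12 with amphetamine, and the other genes rest on 5 steps or fewer per library.

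Whether the day 7 difference departed from that of the other days was tested directly, as the day 7 difference minus the mean difference of days 1 and 21. No gene passed (0 of 13975, 0%), with 479 genes (3.43%) at an unadjusted p under 0.05 and a smallest limma adjusted p of 1. For the genes that rose, this difference between days was 0.42 ± 0.35 (SE) for Fos, −0.01 for Btg2 and 0.06 for AK006051. The tests of day 7 against day 1 and against day 21 alone gave no gene either, with 699 (5%) and 574 (4.11%) at an unadjusted p under 0.05 and smallest limma adjusted p values of 0.693 and 0.539. Within those days, 1 gene (0.00716%) passed on day 1 and 0 (0%) on day 21 in limma, with 7.25% and 5.5% of genes at an unadjusted p under 0.05.

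Npas4 had the widest gap between days among the factors named above, at 0.96 ± 0.33 (SE; unadjusted p = 0.0113, limma adjusted p = 1). Its day 1 values were 7.22, 5.51 and 5.17 FPKM in saline mice and 6.63, 8.94 and 15.4 in amphetamine mice, and those of day 21 were 5.73, 8.01 and 3.46 in saline mice and 7.49, 10.9 and 12.2 in amphetamine mice. The groups overlapped on both of these days, and on day 7 they did not. The saline level of day 7 lay 0.66 below the mean of the other saline groups on the log2 scale (log2 difference −0.66, limma adjusted p = 0.722), and the amphetamine level differed by 0.30 (limma adjusted p = 0.724).

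Pdyn differed by 0.82 ± 0.18 (SE) between the day 7 and day 1 differences (unadjusted p = 0.000446, limma adjusted p = 0.693). On day 1 it stood at 67.5, 66.4 and 57.2 FPKM in saline mice and 54.0, 52.0 and 60.8 in amphetamine mice, with overlap and the lower mean in the amphetamine mice. On day 21 it stood at 54.0, 46.6 and 48.4 FPKM in saline mice and 65.6, 74.7 and 74.5 in amphetamine mice, separated in the same direction as on day 7. The saline level of day 7 lay below the mean of the saline groups of days 1 and 21 (log2 difference −0.435, limma adjusted p = 0.678). Its values overlapped with those of the day 21 saline mice and lay below all those of day 1. The amphetamine level of day 7 lay near the mean of the other amphetamine groups (0.03), which joins a lower group on day 1 with a higher one on day 21. Neither shift passed the threshold.

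The genes with the smallest p for the difference between days, short RNAs left aside, were AK181029, BC116340, 2310046A06Rik, Cdk5rap3 and Sntg1, and none of them passed. Cdk5rap3, an adaptor of the UFM1 ligase, had 12.3, 10.9 and 7.42 FPKM in saline mice and 16.5, 16.6 and 17.3 in amphetamine mice on day 7. On day 21 the order was opposite, with 19.6, 19.5 and 22.9 FPKM in saline mice and 17.4, 12.4 and 19.1 in amphetamine mice. 2310046A06Rik likewise had the higher values with amphetamine on day 7 (3.94, 3.40 and 3.31 against 2.67, 2.11 and 2.20 FPKM) and the lower ones on day 1 (2.49, 2.58 and 2.40 against 3.33, 3.03 and 4.07 FPKM). Sntg1 stood at 4.60 to 4.86 FPKM with amphetamine on day 1 and 4.79 to 5.66 on day 21. Its lowest saline values were 4.02 FPKM on day 1 and 4.11 on day 21. Its 3 lowest libraries of the 18 were the amphetamine mice of day 7, by a narrow margin, since the highest of them stood at 3.96 FPKM. Comparing single treatments across days, no gene passed for saline (839 genes or 6% at an unadjusted p under 0.05, smallest limma adjusted p = 0.244) or for amphetamine (1377 genes or 9.85%, smallest limma adjusted p = 0.171).

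**Figure D5:**
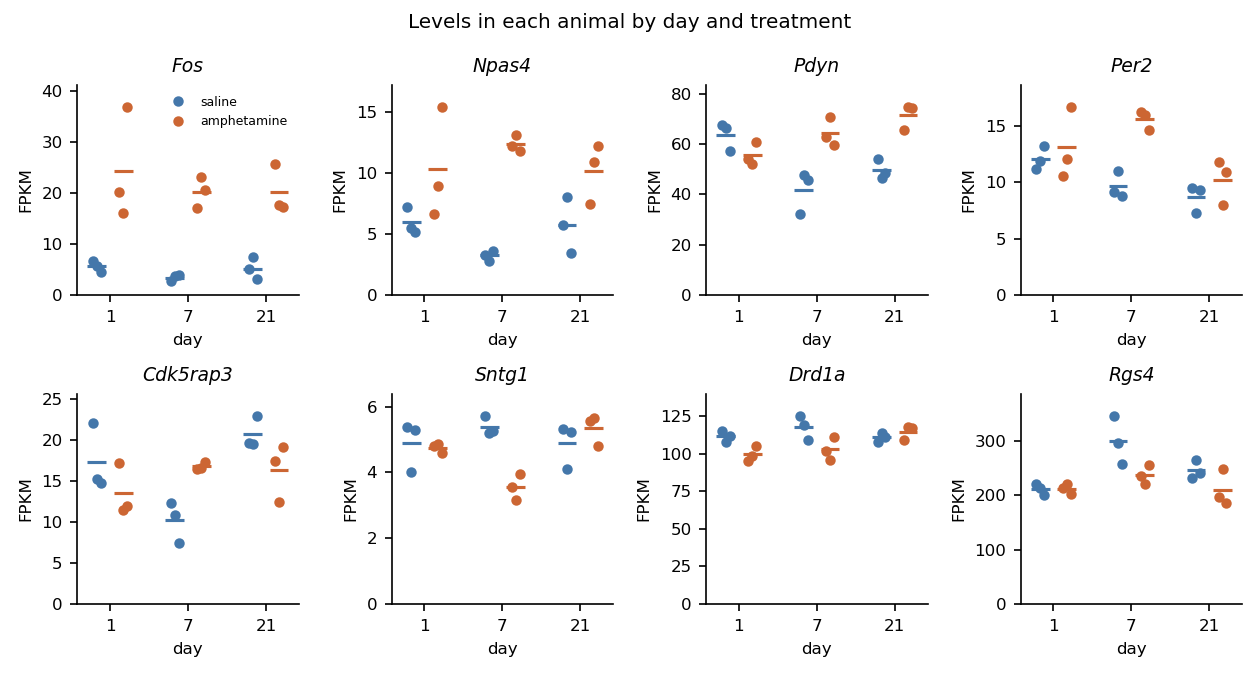
FPKM of 8 genes in each of the 18 mice by day (1, 7 and 21), with saline in blue and amphetamine in orange, points for animals and short lines for means of 3. Fos separates the groups on all 3 days, Npas4 on day 7 alone of the 3, and the day 7 amphetamine values of Sntg1, from 3.17 to 3.96 FPKM, lie below the other libraries.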

How the data were processed

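The deposited table gives FPKM, computed by the authors, for 29942 gene names in 18 libraries of striatal polyA RNA, each from 1 mouse per the labels. Per the submitters' processing notes, Bowtie and build mm9 were used, while versions, quantifier, annotation and strand handling were not given in the sources used here, so overlapping, antisense and near-identical genes are uncertain. From these values log2(FPKM + 1) was computed for names with a mean of at least 1 FPKM, which understates differences of low genes. A limma model (version 3.58.1, in R version 4.3.3) with a mean-variance trend and 1 mean per group was fitted to all 18 libraries (residual degrees of freedom 12, prior 2.26), since the 6 groups then share 1 estimate of the spread. Tests were two-sided, adjusted by the Benjamini-Hochberg method over all genes with a threshold of 0.05, and the code was tested on simulated data. Gene lists were described by counts and medians. A gene can belong to more than 1 list, so the counts of different lists are not separate observations. Named genes were those past the threshold, the 12 smallest p in each direction without overlap and without short RNAs, up to 4 members of each list by p, its 2 members of highest mean FPKM where levels are described, 16 set by name and the 5 smallest p for the difference between days, and others are said to be named after their values were seen. The members and lists were chosen with earlier results of these data known. Promoter and microRNA sequences came from RefSeq on GRCm38.p6, and 92.3% of tested names matched its symbols or synonyms. Alternatives are given in the closing section.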

Additional observations from a re-analysis of the deposited data

How the results depend on the processing

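The count of 3 genes on day 7 was unchanged with a pseudocount of 0.1, either rescaling, robust moderation or relative depth as a covariate, was 2 without a filter and 4 with the leading digits of the label number as a covariate or without short RNA names (depth and short RNAs were added after seeing the data). It was 5 with a minimum of 5 FPKM, 6 with array weights, 9 in the 6 libraries of day 7 alone and 0 with a replicate block in limma (599 genes at an unadjusted p under 0.05). Leaving out single day 7 libraries gave 0 to 2. Same-numbered mice did not deviate together on day 7 (r = −0.025, −0.046 and −0.085), r was 0.102, −0.056 and 0.014 on day 1 and 0.114, 0.043 and 0.145 on day 21, where every mouse correlated best with its own number, a hint from the data. Not every pair was above 0.1, so the numbers were not taken as pairs. Fos passed in 12 of 18 alternatives, Btg2 in 11 and AK006051 in 9, all with the same direction. The difference between days gave 2 genes with the leading digits of the label number as a covariate. The saline level of day 7 against other days gave 1 with array weights, 1 with a replicate block, 17 with the leading digits as a covariate and 0 to 4 without single libraries (4 without saline replicate 1), and the amphetamine level gave 5, 1 and 25 in the first 3 of these settings. Directions near 0 turned for Homer1 (−0.02 with array weights, −0.08 without saline replicate 3, −0.01 without amphetamine replicate 1, and −0.08 to 0.11 over all single libraries), Penk (0 and −0.02 without the same 2 libraries, −0.02 to 0.12 over all) and Ppp1r1b (0.08 after quantile normalization, 0 with array weights, 0.06 without amphetamine replicate 2, −0.07 to 0.06 over all). The cause was not tested. Depth limits short RNAs, where a single fragment is worth many FPKM.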

Other observations

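Some table names are older names of a gene that is listed under more than 1 name. RefSeq gives 297 genes with 2 or more tested names, 594 names in all, of which 37 had an unadjusted p under 0.05 on day 7 and 0 passed the threshold in limma. Septin 5 is one of them, picked after its values were seen. Under the name Cdcrel-1 it was listed at 0.00572, 0.0012 and 0.00534 FPKM in saline mice and at 8.01, 13.4 and 25.1 FPKM in amphetamine mice, higher without overlap. Under the name Sept5 it was listed at 193, 188 and 196 FPKM in saline mice and at 182, 160 and 161 in amphetamine mice, lower without overlap. The sums of both names were 193, 188 and 196 FPKM in saline mice and 190, 174 and 186 in amphetamine mice, with overlap between the groups.

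The last 50 rows of the deposited table held 38 tested genes. All 38 had an unadjusted p under 0.05 and groups without overlap on day 7, against 10 and 12 of the same 38 with an unadjusted p under 0.05 on days 1 and 21. Over all tested genes 4.92% had an unadjusted p under 0.05 on day 7.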
